A study of Mus musculus with 7 samples.

Results

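The long lamin-associated domains (LADs) of mouse embryonic fibroblasts were examined: the autosomal domains of at least 1.5 Mb in a merged LAD list, taken from its name to be the study's Lamin B1 result. They were chosen by their measured length alone, and 277 of the 1437 domains of the list (277 of 1128 on autosomes) met the rule. The study used CUT&RUN on iMEF cells, a line of mouse embryonic fibroblasts. An antibody bound to chromatin recruits a nuclease, which cuts the DNA there and frees it. There were 2 libraries for Lamin B1 and 2 for IgG as control, and single libraries for H3K14ac, for H3K9me2 with antibody ab1220 and for H3K9me2 with antibody 39041. Each reaction took 500000 cells, with antibodies diluted 1 to 100 (IgG 1 to 50). No treatment is labelled, and only the list's own name calls the cells wild type. The series describes the lines as derived independently from a single mouse colony, and whether the 2 Lamin B1 replicates came from different lines is not stated. Each domain is a pair of positions with no signal value, so no domain has a replicate error, the depth is unknown, and Lamin B1 was not compared with the other libraries.

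The nuclear lamina is a mesh of lamin proteins under the inner nuclear membrane, and Lamin B1 stays bound to that membrane through a lipid anchor. Chromatin that touches the lamina is mostly compact, replicates late, carries H3K9me2 and holds few active genes. In vertebrate genomes it takes in gene deserts, the long stretches without protein-coding genes, and very long genes that work in the nervous system.

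Promoters from 250 bases before to 50 bases after a RefSeq start site (GRCm38.p6) are shown for genes on either side of the borders of long LADs. The first 3 belong to the longest genes of these domains that have an entry, namely Cntnap2 (chromosome 6, 45059811 to 45060110, plus strand), Lsamp (chromosome 16, 39984114 to 39984413, plus strand) and Dlg2 (chromosome 7, 91090536 to 91090835, plus strand). The last 2 belong to the ribosomal protein genes nearest outside a long LAD, Rps15a (chromosome 7, 118116098 to 118116397, minus strand) and Rps7 (chromosome 12, 28635904 to 28636203, minus strand). They are written 5′ to 3′ along the gene, and capitals mark each CG dinucleotide.
Cntnap2: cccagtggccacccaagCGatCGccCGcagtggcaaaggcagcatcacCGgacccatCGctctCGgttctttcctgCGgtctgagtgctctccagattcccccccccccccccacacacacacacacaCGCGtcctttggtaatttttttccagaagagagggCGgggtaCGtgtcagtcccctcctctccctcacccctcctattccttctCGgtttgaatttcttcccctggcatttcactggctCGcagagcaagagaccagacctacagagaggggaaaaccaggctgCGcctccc
Lsamp: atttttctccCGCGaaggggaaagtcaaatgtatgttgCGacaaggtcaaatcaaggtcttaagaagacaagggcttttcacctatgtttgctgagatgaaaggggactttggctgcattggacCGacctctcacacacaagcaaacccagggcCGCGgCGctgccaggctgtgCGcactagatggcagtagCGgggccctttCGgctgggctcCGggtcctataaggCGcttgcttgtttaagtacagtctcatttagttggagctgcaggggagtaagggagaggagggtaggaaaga
Dlg2: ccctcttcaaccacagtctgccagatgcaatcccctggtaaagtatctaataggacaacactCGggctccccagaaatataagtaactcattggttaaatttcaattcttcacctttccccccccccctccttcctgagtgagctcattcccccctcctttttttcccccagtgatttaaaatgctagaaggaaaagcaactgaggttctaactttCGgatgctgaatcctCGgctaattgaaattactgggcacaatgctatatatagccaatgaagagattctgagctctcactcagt
Rps15a: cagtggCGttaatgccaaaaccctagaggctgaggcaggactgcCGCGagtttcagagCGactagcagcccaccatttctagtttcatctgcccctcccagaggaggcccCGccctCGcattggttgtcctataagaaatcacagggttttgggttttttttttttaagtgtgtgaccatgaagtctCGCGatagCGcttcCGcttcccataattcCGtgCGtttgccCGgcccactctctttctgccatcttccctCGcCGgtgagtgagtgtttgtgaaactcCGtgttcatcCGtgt
Rps7: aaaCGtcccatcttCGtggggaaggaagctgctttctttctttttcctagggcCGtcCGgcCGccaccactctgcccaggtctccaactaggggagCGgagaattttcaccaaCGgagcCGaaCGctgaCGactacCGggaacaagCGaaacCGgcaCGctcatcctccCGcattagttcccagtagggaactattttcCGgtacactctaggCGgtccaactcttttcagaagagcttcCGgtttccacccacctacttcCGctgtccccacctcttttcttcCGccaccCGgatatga
The CG dinucleotide is the site of DNA methylation in mammals and is frequent in the promoters of broadly used genes. Cntnap2 had 14, Lsamp 12 and Dlg2 3, against 17 in Rps15a and 21 in Rps7. The printed start sites of Cntnap2, Lsamp and Dlg2 lay inside their long LADs. The Dlg2 start is the first of 3 listed and lies within the gene, whose annotated 5′ end was 51.2 kb outside the LAD. The midpoint of Rps15a lay 35.5 kb outside the border of a LAD that holds only Xylt1, and that of Rps7 138.2 kb outside.

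The 277 domains covered 791.6 Mb. They were 24.6% of the autosomal LADs, held 67.2% of the autosomal LAD bases, and took up 33.4% of the autosomal spans from first to last LAD. Their median length was 2.29 Mb, with quartiles of 1.83 and 3.37 Mb. There were 101 domains under 2 Mb, 89 of 2 to 3 Mb, 61 of 3 to 5 Mb and 26 of 5 Mb or more. These values describe the choice by length. The 3 shortest measured 1502 to 1507 kb, on chromosomes 6, 18 and 7. Just under the threshold were LADs of 1490, 1475 and 1475 kb on chromosomes 2, 1 and 5. Gene content did not set these 6 apart, with 1 to 5 protein-coding genes each.

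Every autosome carried long LADs, between 4 on chromosome 19 and 22 on chromosomes 3 and 7. Per Mb of span, the number was highest on chromosome 7 (0.158) and lowest on chromosome 15 (0.0502). Chromosome 15 nevertheless held a domain of 8.90 Mb. Long LADs took up 32.5% ± 6.90 of the span (SD, n = 19 autosomes), from 20.7% on chromosome 19 to 43.2% on chromosome 7. Chromosomes are the only units of spread here and are not biological replicates.

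Long LADs were mainly gene desert. A desert was taken as at least 500 kb between neighbouring protein-coding gene bodies. On average 55.6% ± 12.5 of the bases of long LADs lay in deserts, against 32.6% ± 9.74 in the other autosomal LADs (SD, n = 19 autosomes). The difference of 23.0 percentage points (SD 13.3) had the same sign on 19 of 19 autosomes. It passed an exact two-sided sign-flip permutation test over chromosomes (p = 3.81e-06, the smallest possible; adjusted 1.91e-05 over 5 measures). Other LADs include many short ones: the LADs of 0.5 to 1.5 Mb, nearest in length, had 37.2% ± 12.7, and long LADs were higher than these on 16 of 19 autosomes, all but 7, 14 and 19 (not tested). The gaps between LADs had 10.6% ± 4.82. Within the long LADs the share ran from 27.5% on chromosome 7 to 74.5% on chromosome 18.

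**Figure D1:**
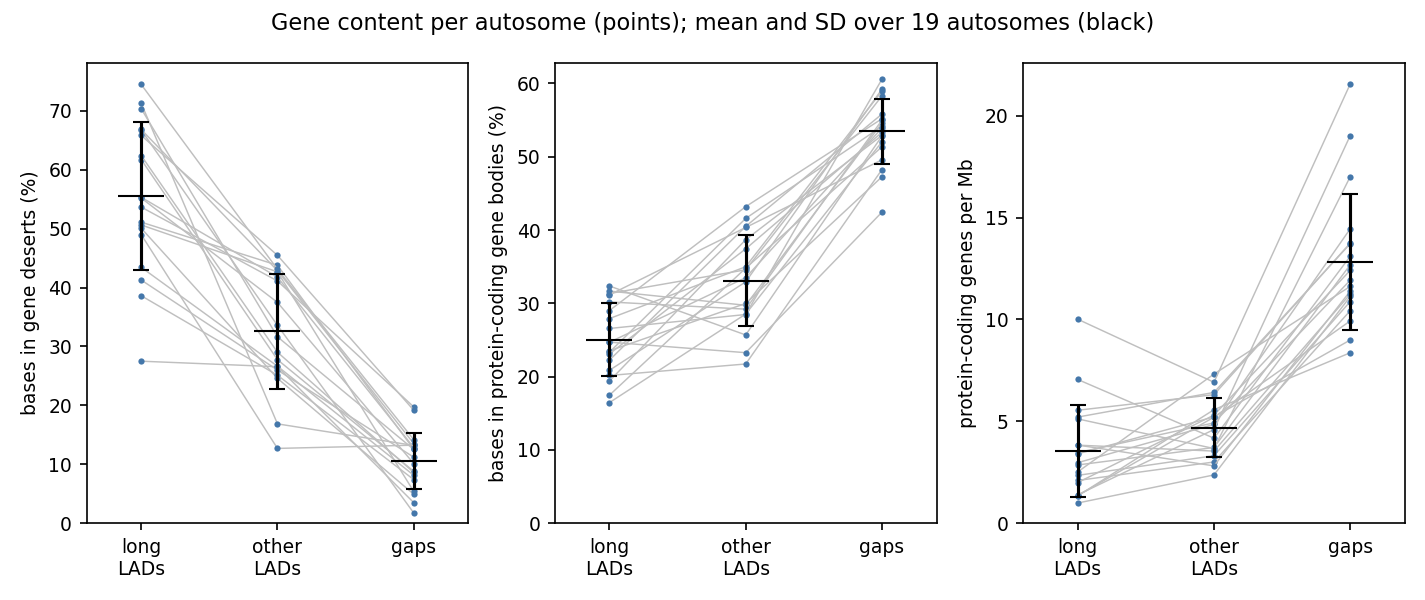
Gene content per autosome in long LADs, in the other autosomal LADs and in the gaps between LADs: bases in gene deserts (left, %), bases in protein-coding gene bodies (middle, %) and protein-coding genes per Mb (right). Points joined by a grey line are 1 autosome, and black marks give the mean and SD over 19 autosomes. The desert share is higher in long than in other LADs on all 19, while gene density overlaps (3.54 against 4.69 genes per Mb on average).

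Protein-coding gene bodies filled 25.1% ± 4.99 of the long LADs and 33.1% ± 6.23 of the other LADs (SD, n = 19). The difference of -8.05 percentage points (SD 7.91) was negative on 15 of 19 autosomes (exact sign-flip permutation p = 5.11e-04, adjusted 0.00128). In the LADs of 0.5 to 1.5 Mb, nearest in length, bodies filled 31.4% ± 7.37, which was not tested against long LADs. In the gaps bodies filled 53.5% ± 4.47. On average, long LADs were thus lower in gene bodies and higher in desert than shorter LADs, and gaps stood apart from both.

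Single domains differed widely in desert content. More than 50% of the domain was desert in 157 of the 277, all of it in 16, and none in 61. The median was 57.0%. Pooled by length, the share was 44.2% for domains under 2 Mb, 52.7% for 2 to 3 Mb, 56.6% for 3 to 5 Mb and 65.8% for 5 Mb or more. Across the 277 domains length and desert share had a Spearman's rho of 0.15, given as a description, since neighbouring domains can share a desert. The desert share therefore varied at every length. These deserts still held non-coding annotation: when all annotated genes bounded a desert, the share fell to 13.4% of long LAD bases and to 1.82% in the other LADs.

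**Figure D2:**
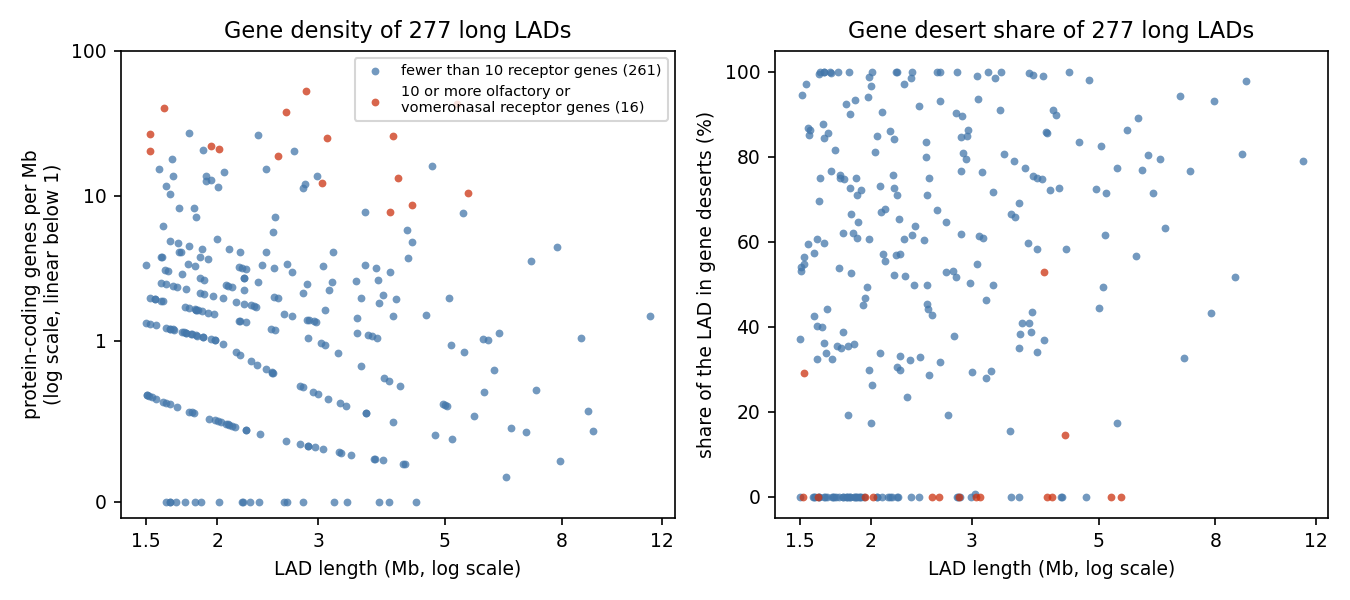
Each point is 1 of the 277 long LADs, by length (Mb, log scale). Left, protein-coding genes per Mb (log scale, linear below 1); right, share of the domain in gene deserts (%). Red points are the 16 domains with at least 10 olfactory or vomeronasal receptor genes, 13 of which hold no desert, while desert shares of the others run from 0% to 100%.

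The autosomes had 585 deserts of at least 500 kb, and 53.8% of them (315) lay with at least 50% of their bases in a single long LAD. The share was 73.6% of the 246 deserts of at least 1 Mb and 91.7% of the 72 deserts of at least 2 Mb. Long LADs held 63.3% of all desert bases, for 33.4% of the span. Long LADs were chosen for length, and a long desert can lie inside a long domain only, so the rise with desert length is in part given by the choice. Of these 72 deserts, 2 lay almost outside LADs, with under 10% of their bases in any LAD.

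The 10 longest deserts of long LADs measured 3.68 to 4.54 Mb. A desert of 4.54 Mb on chromosome 14 (88471397 to 93013699, mm10) lay between Pcdh20 and Pcdh9, which encode protocadherins, and 62.1% of it fell in a single domain. On chromosome 18 a desert of 4.51 Mb (25754521 to 30265614) between Celf4, an RNA-binding protein of neurons, and Pik3c3, a lipid kinase of autophagy, lay in a LAD by 98.5%. A desert of 4.42 Mb on chromosome 14 (80023142 to 84443562) separated Olfm4 from Pcdh17 and lay wholly in a LAD. The same was found for 4.28 Mb on chromosome 1 (100490600 to 104768339) between Cntnap5b and Cdh20.

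Next in length was a desert of 3.99 Mb on chromosome 8 (49522825 to 53511682) between Tenm3, a teneurin of synaptic partner matching, and Aga, a lysosomal enzyme (99.2% in a LAD). A desert of 3.97 Mb on chromosome 1 (46925777 to 50900682) ran from Slc39a10 to Tmeff2 (95.8%). On chromosome 2 a desert of 3.93 Mb (97631673 to 101560778) began at Lrrc4c, a ligand of netrin-G, and ended at Iftap (83.1%). Each of these 3 passed beyond its domain. Those of 3.82 Mb on chromosome 1 (111865053 to 115684736; Dsel to Cntnap5a) and of 3.68 Mb on chromosome 5 (58133237 to 61808842; Pcdh7 to G6pd2) lay wholly inside a LAD. The desert of 3.70 Mb between Zeb2, a repressor of epithelial genes, and Acvr2a, an activin receptor, was covered to 60.1% (chromosome 2, 45117443 to 48814108). These 10 deserts held 11 to 27 annotated non-coding genes and pseudogenes each.

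In 16 long LADs no protein-coding gene overlapped the domain, and in 4 more a gene overlapped without its midpoint. The longest of the 16 measured 4.44 Mb on chromosome 18 (25778936 to 30221421), then came a domain on chromosome 5 of 3.37 Mb (54289641 to 57664629). The next, 3.20 Mb on chromosome 6 (67539434 to 70736923), was free of protein-coding entries but not of coding sequence: it held 102 V segments, which join to form immunoglobulin light chains in B cells. Domains of 2.82 Mb on chromosome 14 (90053537 to 92876027), 2.64 Mb on chromosome 3 (47048462 to 49690953) and 2.61 Mb on chromosome 3 (10491078 to 13103568) had 10, 18 and 12 annotated genes of other types. Of the 10 longest, the remaining 4 measured 2.01 to 2.36 Mb and lay on chromosomes 12, 2, 17 and 12. They held 6 to 10 annotated genes of other types. A domain without a protein-coding gene was thus found up to 4.44 Mb, and each of the 26 domains of 5 Mb or more held at least 1.

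Among the domains ranked 6 to 15 by length, gene content ran from 1 gene to 35. The sixth, on chromosome 10 (100050764 to 107903238; 7.85 Mb), held 35 of them. They included Kitl, the ligand of the receptor Kit, Myf5 and Myf6, factors of skeletal muscle fate, and Mgat4c, the longest at 710.4 kb. The seventh, 7.22 Mb on chromosome 1 (98229691 to 105452167), held 5 genes, among them Cntnap5b (718.4 kb) and Cdh20. In the eighth, 7.06 Mb on chromosome 3 (152828127 to 159893104), 25 genes were placed. They ranged from Negr1, an adhesion protein of neurons (754.7 kb), to Acadm, an enzyme of fatty acid oxidation, Rpe65, the isomerase of the visual cycle, and Wls, which carries Wnt proteins to the cell surface. Domains of like length thus held 5 or 25 genes.

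The ninth domain, 6.93 Mb on chromosome 14 (79763569 to 86696046), was 94.3% desert and had the midpoints of 3 genes. Pcdh8, Olfm4, Pcdh17 and Diaph3 overlapped it. The tenth, 6.53 Mb of chromosome 4 (74280689 to 80810667), contained 3 genes: Kdm4c, which encodes a demethylase of H3K9, Dmac1, and Ptprd, a receptor phosphatase of synapses. Ptprd, at 2.27 Mb, was the longest gene of all long LADs. The eleventh, 6.39 Mb on chromosome 2 (94502112 to 100897091), held Lrrc4c alone. The tenth and eleventh held few genes and 1 gene of over 1 Mb each, while the longest gene placed in the ninth, Pcdh17, measured 94.0 kb.

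The twelfth domain, 6.22 Mb on chromosome 17 (88668808 to 94893788), held 7 genes. Among them were Lhcgr and Fshr, the gonadotropin receptors of the gonads, and Adcyap1, which encodes the neuropeptide PACAP. The next, 6.09 Mb on chromosome 1 (24657423 to 30752403), held 5 genes with Adgrb3, an adhesion receptor of synapses (767.3 kb). The fourteenth, on chromosome 1 (143804546 to 149757026; 5.95 Mb), held 6 genes by midpoint. It takes in Rgs2, Rgs13, Rgs1, Rgs21 and Rgs18, which shorten G protein signals in blood and other cells, and Brinp3. The fifteenth, 5.86 Mb on chromosome 5 (57859629 to 63717110), was 89.3% desert with Pcdh7, G6pd2, Arap2, Dthd1 and Nwd2 overlapping it.

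Gene number was low in most long LADs and high in a few. They held 2908 of the 20558 autosomal protein-coding genes by midpoint (14.1%), and 9.95% of the 19104 genes other than olfactory and vomeronasal receptors. The median was 4 genes per domain, with quartiles of 2 and 8, and 160 domains had 1 to 5. The 10 domains with the most genes held 33.5% of the genes of all long LADs on 4.58% of their bases. Olfactory and vomeronasal receptors made up 34.6% of the genes (1007), and 983 of these lay in only 16 domains. The 58 domains with 10 or more genes, receptor clusters and others, held 2203 of the genes.

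The 5 densest long LADs were clusters of tandemly repeated genes. A LAD of 2.85 Mb on chromosome 7 had 52.9 genes per Mb and another of 5.25 Mb on chromosome 2 had 43.0, and in both most genes were olfactory receptors, which detect odours in the nose. On chromosome 10 (128973173 to 130588166; 1.61 Mb) 65 genes, 62 of them receptors, gave 40.2 per Mb. On chromosome 9 (37668966 to 40301457) a domain of 2.63 Mb held 100 genes with 95 receptors (38.0 per Mb). The fifth held no such receptor: 1.79 Mb on chromosome 8 (20225644 to 22010638) carried 48 genes, 39 of them defensins, the antimicrobial peptides of epithelia (26.9 per Mb). All 5 were free of deserts.

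Per chromosome, long LADs had 3.54 ± 2.26 protein-coding genes per Mb and the other LADs 4.69 ± 1.42 (SD, n = 19 autosomes). The difference of -1.15 genes per Mb (SD 2.22) was negative on 14 of 19 autosomes and passed narrowly (exact sign-flip permutation p = 0.037, adjusted 0.046). Without the receptors it was -1.68 (SD 1.58; permutation adjusted p = 3.05e-04). By the same permutation test the call was lost with a threshold of 2 Mb, where the difference was -1.38 (adjusted p = 0.053), and with domains up to 100 kb apart joined, where it was -1.0 (0.082). It was also lost at smaller differences with whole genes inside (-0.527, 0.39) and with genes placed by transcription start (-0.540, 0.24). The gaps held 12.8 ± 3.32 genes per Mb. Among the long LADs pooled by length, density was 4.33 genes per Mb under 2 Mb and 2.89 at 5 Mb or more, or 3.33 and 1.32 without receptors. Across single domains the Spearman's rho of length and density was -0.18 (n = 277, a description).

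Very long genes were concentrated in LADs, and those of 1 Mb or more mostly in long ones. Of 216 autosomal protein-coding genes of at least 500 kb, 107 had their midpoint in a long LAD (49.5%; 95% Wilson interval, 42.9% to 56.2%, counting error only), against 14.1% of all protein-coding genes. Another 50 lay in other LADs and 59 outside LADs. Among the 55 genes of at least 1 Mb the share was 70.9% (39). Per Mb, however, genes of at least 500 kb had like frequencies in long LADs (0.135) and other LADs (0.130), and a lower one in gaps (0.0478). For genes of 1 Mb or more the values were 0.0493, 0.0285 and 0.00419 per Mb, a difference not tested. A gene longer than a domain cannot lie wholly in it, though its midpoint can, as for Macrod2 (2.00 Mb) and Ctnna3 (1.57 Mb) in other LADs.

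**Figure D3:**
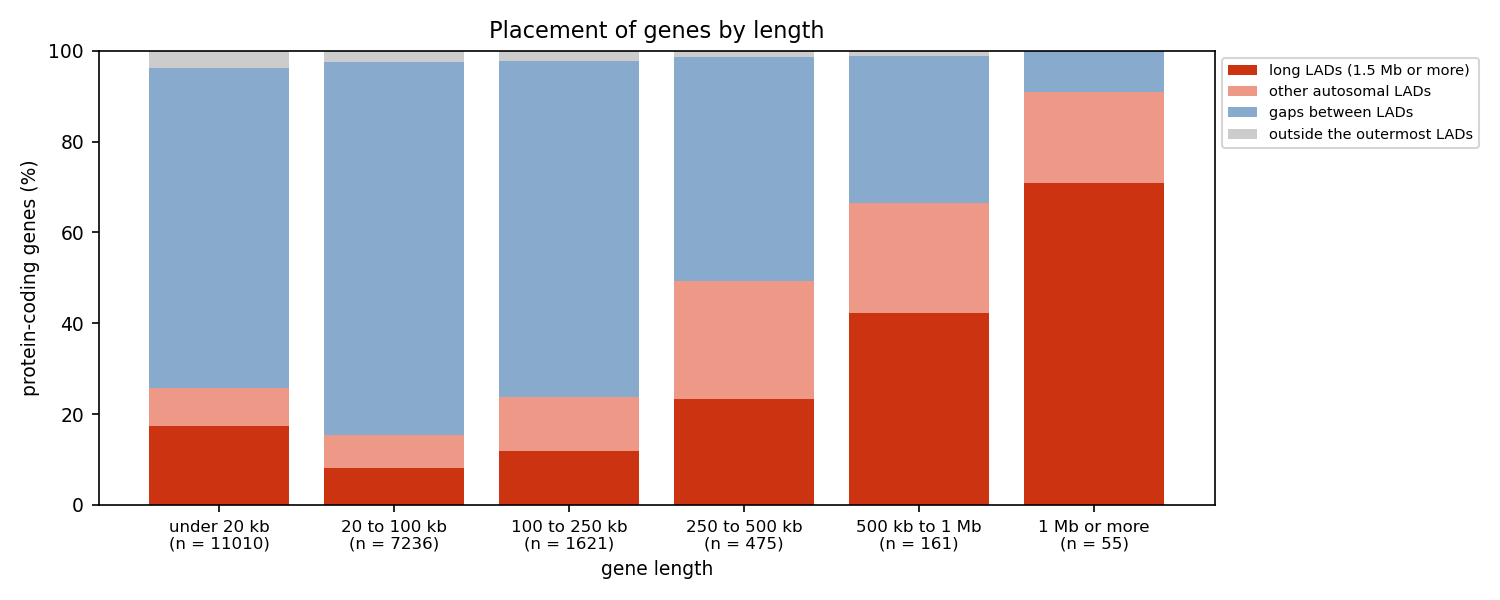
Placement of autosomal protein-coding genes by gene length, as the share (%) of each length class in long LADs, other LADs, gaps and the chromosome ends outside the outermost LADs. The share in long LADs is lowest for genes of 20 to 100 kb (8.20%) and rises to 70.9% of the 55 genes of 1 Mb or more.

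The relation with gene length was not even. Long LADs held 17.3% of the 11010 genes under 20 kb, 8.20% of those of 20 to 100 kb, 11.9% of those of 100 to 250 kb and 23.4% of those of 250 to 500 kb. Without receptors the share of genes under 20 kb was 9.86%. Genes of 250 to 500 kb were placed in other LADs in 25.9% of cases, and their density was 0.140 per Mb in long LADs and 0.319 in other LADs, a difference not tested. Median gene length did not separate the kinds of LAD: per chromosome it was 21.9 kb ± 34.1 in long LADs and 22.8 kb ± 18.8 in other LADs (SD, n = 19). The difference averaged -0.861 kb with an SD of 28.1 (exact sign-flip permutation p = 0.90, adjusted 0.90), a spread too wide to call the lengths alike. With all annotated genes it was -2.96 kb and passed (permutation adjusted p = 0.0083).

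The 25 longest genes placed in long LADs measured 1.14 to 2.27 Mb. Several encode adhesion and receptor proteins of neurons. Ptprd was followed by Cntnap2 (2.24 Mb), which gathers potassium channels on axons, Lsamp (2.20 Mb), an adhesion protein of the limbic system, and Dlg2 (1.97 Mb), a scaffold of the postsynaptic density. Others of this kind were Nrxn3 (1.61 Mb), Robo2, a receptor for Slit in axon guidance (1.56 Mb), Lrrc4c (1.31 Mb), Cntn5 (1.27 Mb), Lingo2 (1.25 Mb), Tenm2 (1.23 Mb) and Cdh12 (1.15 Mb). Dpp10 (1.51 Mb) encodes an auxiliary subunit of potassium channels.

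The rest have varied roles. Lrp1b (2.06 Mb) belongs to the lipoprotein receptors, Csmd1 (1.64 Mb) and Csmd3 (1.21 Mb) carry complement-binding domains, and Fhit (1.61 Mb) is a hydrolase at a fragile site. Pcdh15 (1.55 Mb) forms the tip links of hair cells, Gpc5 (1.43 Mb) is a glypican of the cell surface, and Agbl4 (1.27 Mb) removes glutamates from tubulin. Prkg1 (1.20 Mb) is a kinase driven by cyclic GMP, and Sgcz (1.14 Mb) a sarcoglycan. Naaladl2 (1.35 Mb), Nkain2 (1.21 Mb), Ccser1 (1.20 Mb) and Galntl6 (1.14 Mb) complete the 25. The 107 genes of at least 500 kb lay in 96 different domains, so most such domains held a single one. Together with genes that only reached in, such genes covered 12.5% of the bases of long LADs.

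Most of these genes lay wholly in their domain, and some crossed a border. Of the 216 genes of at least 500 kb, 88 lay entirely inside a long LAD and 26 crossed a border of one. In 19 of the 26 the midpoint was inside, with 62.3% (Erbb4) to 99.9% (Nkain2) of the gene in long LADs. Cntnap2 had 92.3% inside, Lsamp 99.1%, Dlg2 97.4%, Naaladl2 97.0%, Tenm2 94.2%, Ccser1 83.0% and Galntl6 85.7%. For these genes the LAD thus ended within the gene, with a minor part beyond the border. Dpp6, Nell1, Grm8, Grid1, Tenm4, Arhgap15, Grip1, Adarb2, Pkhd1 and Stpg2 had 83.2% to 98.6% inside. In others, such as Macrod2, Ctnna3, Magi2, Tenm3, Ptprg and B3galt1, the midpoint was outside and a long LAD covered 2.68% to 38.4% of the gene.

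Gene classes were read by symbol, and their shares are set against the 14.1% of all autosomal protein-coding genes in long LADs and against the 61.6% of all LAD genes that lie in long ones. Genes of a class often share a domain, so the genes are not independent and no test was made. Some classes of adhesion genes were frequent, while adhesion GPCRs, given below, were near the background at 16.0%. Contactins and their partners had 11 of 13 genes in long LADs (84.6%), in 9 domains, and none in other LADs. Cntn3, Cntn4 and Cntn6 shared a domain of 5.82 Mb on chromosome 6 (100916828 to 106739309). The longest of the class were Cntnap2, Cntn5, Cntn4 (1.02 Mb) and Cntnap5a (902.6 kb).

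Cadherins, which join cells through calcium-dependent contacts, had 11 of 23 genes in long LADs (47.8%) and none in other LADs, but these 11 lay in 5 domains. A single domain on chromosome 15 held Cdh6, Cdh9, Cdh10 and Cdh12. The longest in the class after Cdh12 were Cdh4 (457.0 kb), Cdh8 (393.2 kb) and Cdh20 (227.1 kb). Non-clustered protocadherins had 6 of 10 in long LADs, led by Pcdh15, Pcdh7 (417.1 kb), Pcdh17 (94.0 kb) and Pcdh10 (56.2 kb). Nrxn3 and Nlgn1 (911.1 kb), of the neurexins and neuroligins that pair across synapses, did so too. Leucine-rich synaptic adhesion genes had 8 of 24 (33.3%), with Lrrc4c, Lrrtm4 (791.3 kb), Lrfn5 (335.1 kb) and Lrrtm1 (30.7 kb) the longest. Another 5 of this class lay in other LADs, so 61.5% of those in LADs were in long ones, like the 61.6% of all LAD genes. Axon guidance genes stood nearer to the background, at 11 of 64 (17.2%), and the longest were Robo2, Dcc (1.10 Mb), Robo1 (1.02 Mb) and Epha6 (969.5 kb).

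**Figure D4:**
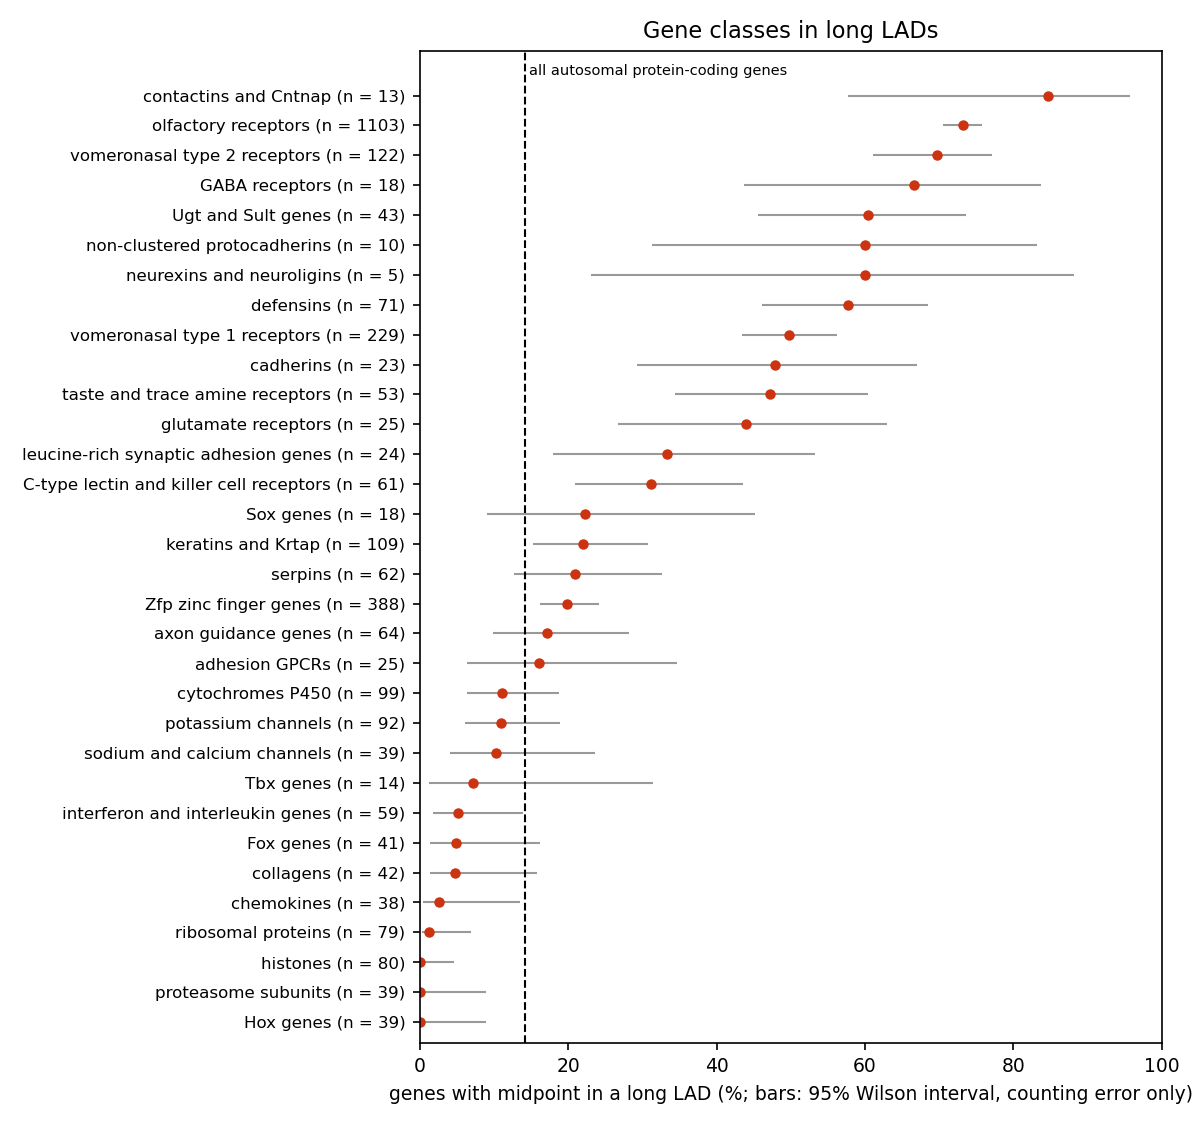
Share of each gene class (%) with its midpoint in a long LAD; n is the number of autosomal genes in the class and bars are 95% Wilson intervals, which cover counting error only. The dashed line is the share of all autosomal protein-coding genes (14.1%); contactins (84.6%) and olfactory receptors (73.3%) are highest, while Hox genes, histones and proteasome subunits are at 0.

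Many receptors of GABA and glutamate lay in long LADs. GABA receptors, which mediate inhibition, had 12 of 18 genes in long LADs (66.7%) and none in other LADs. Most came in clusters, while Gabrr3 was the only GABA receptor gene of its domain on chromosome 16. Gabrg1, Gabra2, Gabra4 and Gabrb1 (491.7 kb) shared a domain of 2.51 Mb on chromosome 5 (69614592 to 72124583). Gabrb2 (213.1 kb) and Gabra6 shared one of 2.55 Mb on chromosome 11 (40818045 to 43370536), and Gabra5 and Gabrg3 (670.8 kb) one of 2.34 Mb on chromosome 7 (56242450 to 58582441). Glutamate receptors, the main excitatory receptors, had 11 of 25 (44.0%) in 11 separate domains, with Grm7 (921.9 kb), Grm8 (860.0 kb), Grid1 (763.4 kb) and Grik2 (696.5 kb) the longest. Their presence in long LADs did not come from clusters.

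Potassium channel genes had 10 of 92 in long LADs (10.9%) and 22 in other LADs, so 31.2% of those in LADs lay in long ones. For all genes other than olfactory and vomeronasal receptors these shares were 9.95% and 55.6%. The longest 4 were Kcnq5 (564.3 kb), Kcnd2 (514.5 kb), Kcnh8 (376.5 kb) and Kcnt2 (368.4 kb). Sodium and calcium channels had 4 of 39 (10.3%). Scn1a, Scn9a and Scn7a were neighbours in a domain of 1.60 Mb on chromosome 2 (66182202 to 67779696), and Scn3b was the other. Another 8 lay in other LADs, so 33.3% of those in LADs were in long ones. Adhesion GPCRs had 4 of 25 (16.0%): Adgrb3, Adgre1, Adgrl4 and Adgre4. Another 4 lay in other LADs, so 50% of those in LADs were in long ones. The 95% Wilson intervals of the potassium channels (6.01% to 18.9%) and of the sodium and calcium channels (4.06% to 23.6%) include the 14.1% of all genes.

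Sensory receptor genes were the most numerous. Olfactory receptors had 808 of 1103 in long LADs (73.3%) in 15 domains, and 82.8% of those in LADs were in long ones. The longest of them was Olfr183 (71.2 kb), followed by Olfr1280, Olfr687 and Olfr1033. Vomeronasal receptors detect pheromones. Type 2 receptors had 85 of 122 (69.7%), among them Vmn2r60 (79.3 kb), Vmn2r91, Vmn2r57 and Vmn2r59, and type 1 receptors had 114 of 229 (49.8%), with Vmn1r148, Vmn1r132, Vmn1r172 and Vmn1r71 the longest. Type 1 receptors were also placed in other LADs in 39.3% of cases. Taste and trace amine receptors had 25 of 53 (47.2%), and 24 of these, Tas2r102, Tas2r107, Tas2r123 and Tas2r110 among them, shared a domain of 2.43 Mb on chromosome 6 (131456732 to 133886723).

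Classes of immune defence and of drug metabolism varied in their share. Defensins had 41 of 71 in long LADs (57.7%), 39 of them in the chromosome 8 cluster with Defb1, Defb50 and Defb33, while Defb41 lay in a domain on chromosome 1. C-type lectin and killer cell receptors had 19 of 61 (31.1%), 18 of them, Klra2, Klra17, Klri1 and Klra4 included, in 1.67 Mb of chromosome 6 (129604237 to 131276731). A further 47.5% of this class lay in other LADs. Serpins, mostly protease inhibitors, had 13 of 62, 12 of them in the longest LAD, with Serpinb10, Serpinb7 and Serpinb2, and Serpini2 on chromosome 3. Another 22 serpins lay in other LADs, so 37.1% of those in LADs were in long ones, against 61.6% of all LAD genes. Interferon and interleukin genes had 3 of 59: Il22, Ifng and Ifnk. Cxcl13, which attracts B cells, was the only one of 38 chemokines.

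Cytochromes P450, which oxidise lipids and drugs, had 11 of 99 in long LADs (11.1%) but 41.4% in other LADs, so 21.2% of those in LADs were in long ones. The longest were Cyp7b1 (171.9 kb) and Cyp2j8, Cyp2j11 and Cyp2j6 in a cluster on chromosome 4. Ugt and Sult genes, which conjugate small molecules, had 26 of 43 (60.5%), with Sult2a4, Ugt8a, Sult2a3 and Sult2a5 the longest. Of 388 Zfp zinc finger genes 77 lay in long LADs (19.8%), among them Zfp804b (575.3 kb), Zfp993, Zfp978 and Zfp804a. Keratins and keratin-associated proteins had 24 of 109, all in a single domain of 2.35 Mb on chromosome 16 (87764390 to 90116882) that holds Krtap24-1, Krtap11-1, Krtap26-1 and Krtap13 of hair.

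Transcription factor families varied. Sox genes had 4 of 18 in long LADs: Sox5 (953.9 kb), Sox6 (569.9 kb), Sox11 and Sox17. Foxp2 (540.6 kb) and Foxa1 were the 2 of 41 Fox genes, and Tbx18 the 1 of 14 Tbx genes. The 95% Wilson intervals of the Sox (9.0% to 45.2%), Fox (1.35% to 16.1%) and Tbx shares (1.27% to 31.5%) include the 14.1% of all genes. Of 42 collagens Col22a1 (355.2 kb) and Col11a1 (190.3 kb) lay in long LADs and 7 in other LADs, so 22.2% of those in LADs were in long ones. No Hox gene (0 of 39), histone (0 of 80) or proteasome subunit (0 of 39) had its midpoint in a long LAD, and the upper 95% Wilson limits were 8.97%, 4.58% and 8.97%. Rpl10l, an intronless relative of Rpl10 used in the testis, was the only one of 79 ribosomal protein genes.

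The labelled cell type could not be checked by expression, since only domain positions were used. None of 12 fibroblast genes, among them Col1a1, Col3a1, Vim, Thy1 and Postn, and none of 8 autosomal housekeeping genes lay in a long LAD, and S100a4 was the nearest to one, at 143.4 kb. At the 14.1% of all genes, lists this short can hold few or none. Of 13 genes of neurons 6 did, among them Snap25 and Syt1 of synaptic vesicle release. A further 2, Rbfox1 and Dlgap1, lay in other LADs. Slc17a6, a vesicular glutamate transporter, was 51.5 kb outside a long LAD. Gad1, Gad2, Slc17a7 and Rbfox3 also lay outside LADs, at 1918 kb (Slc17a7) to 16620 kb (Gad2) from a long one. These 13 were picked with neural genes of great length among them, so their count is a description.

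Non-coding genes differed by type. Of all annotated autosomal genes 19.4% lay in long LADs. For lncRNA genes the share was 14.7%, near the 14.1% of protein-coding genes, and their density was 2.29 per Mb in long LADs, 4.23 in other LADs and 7.23 in gaps. Pseudogenes showed no such fall, with 3.83, 3.76 and 3.49 per Mb, and 34.5% of them lay in long LADs, near the 33.4% of the span that these take up. The domain with the most pseudogenes (132) was a LAD of 5.48 Mb on chromosome 7 (7317605 to 12800086) with 46 receptor genes. Long LADs thus held about as many pseudogenes as protein-coding genes (3033 and 2908).

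Small RNA genes varied in their placement. MicroRNA genes had 69 of 1136 in long LADs (6.07%), in 54 domains with at most 4 each, and tRNA genes 15 of 386 (3.89%), each in a different domain. For snoRNA genes it was 455 of 1276 (35.7%), of which 206 lay in a single LAD of 1.88 Mb on chromosome 7 (59342440 to 61222433). That LAD contains Snrpn, an imprinted gene expressed from the paternal copy, and few other protein-coding genes. Without its snoRNA genes the share was 23.3% (249 of 1070), nearer to the 19.4% of all annotated genes, and snRNA genes had 25.4% of 924. V segments of the antigen receptors had 223 of 374 in long LADs (59.6%), in only 2 domains. One was the light chain domain of chromosome 6, and the other, on chromosome 12 (113222386 to 116169876), held 121.

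Promoters of genes in long LADs were poor in G and C. The RefSeq table gave promoters for 18 autosomes, with entries for 84.8% of the protein-coding genes in long LADs, 83.2% in other LADs and 81.6% in gaps there. Median G+C was 43.0% in long LADs, 47.7% in other LADs and 59.0% in gaps. Per chromosome the means were 46.7% ± 4.65 and 49.4% ± 3.45 for long and other LADs (SD, n = 18). The difference of -2.71 percentage points (SD 4.92) was negative on 13 of 18 autosomes and passed narrowly (exact sign-flip permutation p = 0.034, adjusted 0.046). It was -0.706 without olfactory and vomeronasal receptors (permutation adjusted p = 0.72), -0.533 with a threshold of 2 Mb (0.90) and -2.29 without chromosome 7 (0.081).

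**Figure D5:**
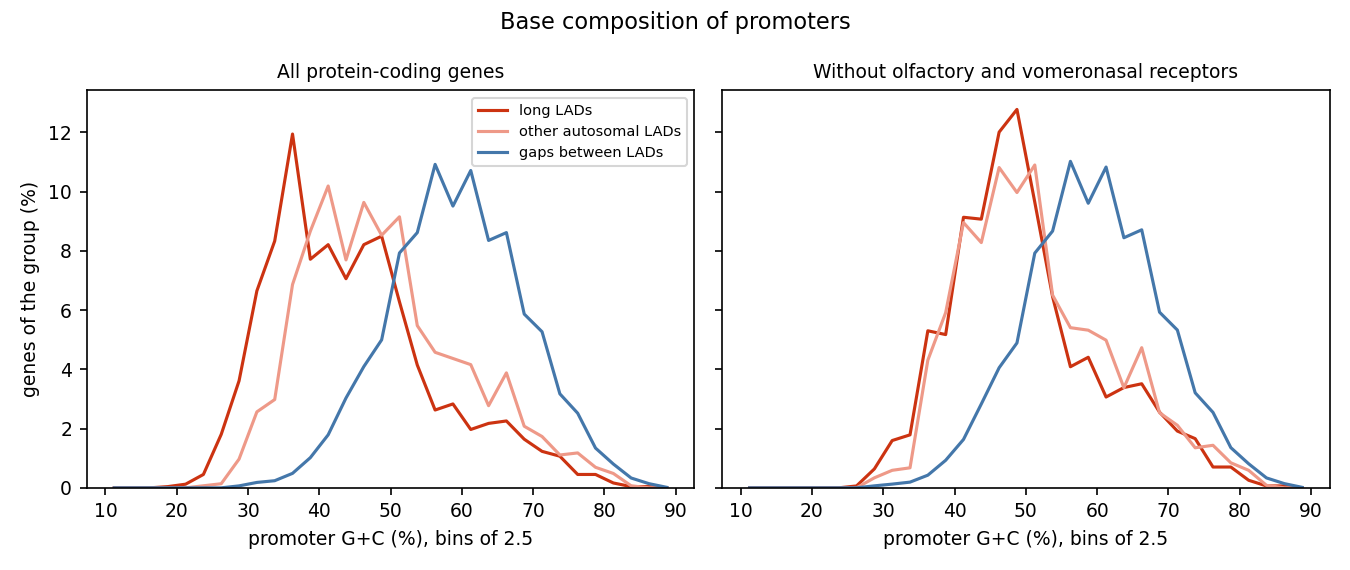
Distribution of promoter G+C (%, bins of 2.5) for protein-coding genes in long LADs, other autosomal LADs and gaps, as the share (%) of genes of each group; left, all genes, right, without olfactory and vomeronasal receptors. Gap promoters are most frequent between 55% and 62.5%, around their median of 59.0% over all genes, and LAD promoters lie lower. Without receptors the curves of long and other LADs nearly coincide, with medians of 48.4% and 50.0%.

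The content of CG dinucleotides followed the same order. A promoter of 300 bases had a median of 2 in long LADs, 4 in other LADs and 18 in gaps, or 4, 5 and 18 without receptors. The ratio of observed to expected CG reached 0.6 in 14% of promoters in long LADs, 20.2% in other LADs and 58.4% in gaps, and 48.5% of all. Without receptors these shares were 21.6%, 24.6% and 59.0%. Genes of at least 500 kb in long LADs stood apart from their neighbours as a description: 38.8% of 85 promoters reached 0.6, with a median G+C of 57.0%. Among shorter genes of long LADs other than receptors it was 20.7% of 1481, with a median of 48.3%. Over all autosomal genes with promoters the median G+C was 56.7%, and genes of at least 500 kb elsewhere were not examined for this. The Cntnap2 and Lsamp promoters printed above, at ratios of 0.567 and 0.592, lay just under the limit of 0.6. Dlg2 had 0.218, Rps15a 0.812 and Rps7 0.936. The letters TATAAA, on either strand, occurred in 32.0% of promoters in long LADs, 21.4% in other LADs, 11% in gaps and 15% of all, and without receptors in 24.6% in long and 19.1% in other LADs. A match does not show a functional site.

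At the borders, gene content rose towards the edge. In the outer 250 kb of long LADs there were 4.76 ± 2.19 protein-coding genes per Mb, against 3.27 ± 2.33 further inside (SD, n = 19 autosomes), higher at the edge on 18 of 19, with no test made. These outer parts made up 17.5% of the bases and held 23.2% of the genes. Of 546 borders of long LADs with a gene beyond them, 35.0% fell inside a protein-coding gene, close to the 36.5% of 1687 borders of other LADs. Looking outward, the nearest start site with a RefSeq promoter entry lay at a median of 70.1 kb for 522 borders of long LADs and 112.2 kb for 1603 of other LADs. Looking inward, where the nearest can lie past the domain, it was 429.6 and 265.2 kb. Where a start site lay within 50 kb outside a long LAD, 92 of 179 genes (51.4%; 95% Wilson interval, 44.1% to 58.6%) were transcribed away from it. No preferred direction was seen within this counting error.

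The gaps beside long LADs measured 341.2 kb at the median (quartiles, 142.5 and 1280 kb), and those beside other LADs 275.0 kb. Of 542 gaps beside long LADs 16.8% measured at most 100 kb and 27.9% at least 1 Mb, against 17.8% and 25.5% of 1676 beside other LADs. Many gaps lie between a long and a shorter LAD and count on both sides, so these values were not tested.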

How the data were processed

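Lamin B1 CUT&RUN libraries of mouse embryonic fibroblasts were aligned with Bowtie2 to mm10, per the submitters' processing notes; the domain caller, its threshold and the use of IgG or spike-in reads are not given in the sources used here. The authors deposited domains, merged by the name of the list, as start and end positions, and the deposited score column is 0 on every line. Members were autosomal domains of at least 1.5 Mb. The members, gene classes and marker lists were chosen with earlier results of these data known. Genes came from RefSeq (GRCm38.p6, the build of mm10) without 333 entries (107 protein-coding) given in scaffold rather than chromosome coordinates, and were placed by midpoint, and deserts were gaps of at least 500 kb between protein-coding bodies. Promoters were averaged per gene over 18 autosomes, and chromosome 18 promoters were not used here. Long and other autosomal LADs were compared per chromosome with exact two-sided sign-flip permutation tests, adjusted by Benjamini-Hochberg over 5 measures and tested on simulated data (Python 3.11.15, numpy 2.4.6, scipy 1.17.1). Named genes and regions followed set rules: lengths ranked 6 to 15, gene-free and densest domains, 10 longest deserts, 25 longest genes, border-crossing genes and the longest 4 genes of each of 32 classes, apart from a few items that are not reported here; genes named beyond these illustrate a domain or a shared cluster and were chosen after their values were seen. The depth is unknown. Alternatives covered thresholds, joining, gene placement and receptors. The planned test of A+T content was not run without a genome sequence.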

Additional observations from a re-analysis of the deposited data

How the results depend on the processing

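The gene desert and gene body differences kept their sign and their side of the threshold under each alternative run. The gene density difference (-1.15 genes per Mb) stayed negative. It no longer passed at 2 Mb, where it was larger but with a wider spread (-1.38, SD 2.75), with domains up to 100 kb apart joined (-1.0), with whole genes inside (-0.527) and by transcription start (-0.540). The promoter G+C difference no longer passed without receptors (-0.706 percentage points), at 2 Mb (-0.533) and without chromosome 7 (-2.29). The gene length difference, which did not pass, changed sign at 2 Mb (36.5 kb), with joining at 250 kb (0.795) and with whole genes (2.48), and passed with all annotated genes (-2.96). The cause was not tested. By construction, long LADs numbered 176 at 2 Mb, and held 78.7% of autosomal LAD bases at 1 Mb, 52.3% at 2 Mb and 83.9% with joining at 250 kb. The share of long genes in long LADs moved with the gene length taken, from 31.5% of genes of at least 250 kb to 70.9% of those of at least 1 Mb. It was 40.7% of those of at least 500 kb when whole genes were counted. Leaving out chromosome 7, and leaving receptors out of the desert measure, were chosen after seeing the data. No paired analysis was possible because the list is named as merged and holds 1 set of positions, which also kept each replicate from being left out in turn. The planned A+T comparison was not run. The unknown depth limits how firmly borders and short gaps can be read.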

Other observations

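Cdh11, a cadherin known from mesenchymal cells, and Cdh8 were the only protein-coding genes of a LAD of 7.95 Mb on chromosome 8 (95985404 to 103937878). Expression was not measured here, and Cdh11 was singled out after its placement was seen. Ifng and Il22, cytokines of lymphocytes, shared a LAD of 2.18 Mb on chromosome 10 (117888208 to 120068200) with 26 lncRNA genes and no gene desert.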
